A study of Mus musculus with 30 samples.

Results

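Crotonate treatment of cultured mouse neural stem/progenitor cells (NSPCs) gave 23301 regions enriched for histone lysine crotonylation (Kcr), and 3746 of them (16.1%) formed the set described here. These 3746 members are crotonate Kcr peaks that overlapped no Kcr peak of control cells but overlapped, by 1 bp or more, a peak of histone lysine acetylation (Kac) of control cells. They are places that were called acetylated, and not called crotonylated, in cells without added crotonate. The other crotonate Kcr peaks were 7458 new peaks without a control Kac peak (32.0%) and 12097 peaks that overlapped a control Kcr peak (51.9%). The members were chosen from the crotonate Kcr, control Kcr and control Kac lists, so their presence in or absence from these lists is a description and not a result.

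Cells were isolated from C57BL/6 forebrain of E13.5 embryos, grown with EGF and FGF, and treated at passage 2 to 3 for 24 h with 10 mM crotonate, with 1 μM MS-275 (which blocks the class I histone deacetylases), or with DMSO as the control. ChIP-seq with pan-Kcr and pan-Kac antibodies was available as 1 peak list per antibody and treatment, and RNA-seq as 4 libraries per treatment. Forebrain tissue of the same stage, from C57BL/6 mice, gave 1 peak list each for H3K9ac and H3K9cr, which are acetylation and crotonylation of lysine 9 of histone H3, and 1 RNA library. Forebrain explants of E13.5 ICR mice, 3 treated with crotonate and 3 controls, were available as the authors' own comparison. No solvent is stated for crotonate, so crotonate and the change from DMSO cannot be told apart. The submitters call the 4 RNA libraries biological replicates without saying what separates them, so the p-values below measure the spread between these libraries only.

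Histone crotonylation and acetylation are acyl marks placed on the same lysines by shared enzymes, among them p300, which uses crotonyl-CoA or acetyl-CoA as donor. Extra crotonate raises the cellular supply of crotonyl-CoA. Class I deacetylases such as the targets of MS-275 remove both marks, and reader proteins differ in which acyl group they prefer: YEATS and double PHD finger domains favour crotonyl-lysine, while most bromodomains bind acetyl-lysine. Both marks lie mainly around the starts of active genes and at enhancers.

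Promoter windows show where a member can lie relative to a gene start. The 6 below belong to the named genes with the largest RNA changes whose window holds bases of a member, 3 genes higher and then 3 genes lower with crotonate. Vit, Pdgfrl, Zfr2, Fam72a, Cdca2, Foxj1 and Ifrd1 were passed over on the way down the list, a step added after the values were seen. Each window has 250 bases before and 50 from the annotated start onward, from RefSeq on GRCm38.p6, and the capitals mark the bases inside the member. Tesc is at chr5:118027493-118027792 (plus strand), Clstn3 at chr6:124464735-124465034 (minus strand), Fkbp1b at chr12:4841524-4841823 (minus strand), AA465934 at chr11:83291449-83291748 (plus strand), Arl4c at chr1:88702142-88702441 (minus strand) and Itga4 at chr2:79255176-79255475 (plus strand).
Tesc: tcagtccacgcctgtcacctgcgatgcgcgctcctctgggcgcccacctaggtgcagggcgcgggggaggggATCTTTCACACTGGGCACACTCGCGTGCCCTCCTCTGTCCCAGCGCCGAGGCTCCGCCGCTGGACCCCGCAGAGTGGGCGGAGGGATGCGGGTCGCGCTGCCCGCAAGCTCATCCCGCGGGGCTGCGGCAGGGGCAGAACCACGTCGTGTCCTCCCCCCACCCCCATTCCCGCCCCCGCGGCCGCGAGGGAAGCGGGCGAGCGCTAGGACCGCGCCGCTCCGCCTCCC
Clstn3: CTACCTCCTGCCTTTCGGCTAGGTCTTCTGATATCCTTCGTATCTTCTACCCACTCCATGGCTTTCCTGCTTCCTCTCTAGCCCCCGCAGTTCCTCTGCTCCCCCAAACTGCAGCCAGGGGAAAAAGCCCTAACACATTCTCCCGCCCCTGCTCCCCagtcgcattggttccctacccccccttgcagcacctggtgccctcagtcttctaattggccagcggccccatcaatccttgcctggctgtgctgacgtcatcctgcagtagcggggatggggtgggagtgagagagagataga
Fkbp1b: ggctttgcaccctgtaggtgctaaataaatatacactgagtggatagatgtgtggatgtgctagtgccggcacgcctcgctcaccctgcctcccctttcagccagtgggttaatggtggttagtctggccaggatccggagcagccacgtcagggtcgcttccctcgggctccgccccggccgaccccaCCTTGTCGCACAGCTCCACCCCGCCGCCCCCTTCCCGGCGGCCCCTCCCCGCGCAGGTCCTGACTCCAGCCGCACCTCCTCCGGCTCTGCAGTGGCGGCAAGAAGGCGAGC
AA465934: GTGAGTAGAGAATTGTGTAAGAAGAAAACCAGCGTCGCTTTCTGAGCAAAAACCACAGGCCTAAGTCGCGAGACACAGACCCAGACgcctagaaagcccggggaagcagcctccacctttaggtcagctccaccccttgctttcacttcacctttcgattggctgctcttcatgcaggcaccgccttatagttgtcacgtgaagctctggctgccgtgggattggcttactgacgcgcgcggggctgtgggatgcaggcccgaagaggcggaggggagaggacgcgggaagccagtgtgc
Arl4c: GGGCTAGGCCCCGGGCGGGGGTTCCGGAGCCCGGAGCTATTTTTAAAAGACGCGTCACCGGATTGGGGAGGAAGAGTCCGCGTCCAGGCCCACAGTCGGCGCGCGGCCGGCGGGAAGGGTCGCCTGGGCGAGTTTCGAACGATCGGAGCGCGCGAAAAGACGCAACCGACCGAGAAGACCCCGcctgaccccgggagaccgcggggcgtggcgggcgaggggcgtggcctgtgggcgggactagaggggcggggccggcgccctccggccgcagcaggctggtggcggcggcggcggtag
Itga4: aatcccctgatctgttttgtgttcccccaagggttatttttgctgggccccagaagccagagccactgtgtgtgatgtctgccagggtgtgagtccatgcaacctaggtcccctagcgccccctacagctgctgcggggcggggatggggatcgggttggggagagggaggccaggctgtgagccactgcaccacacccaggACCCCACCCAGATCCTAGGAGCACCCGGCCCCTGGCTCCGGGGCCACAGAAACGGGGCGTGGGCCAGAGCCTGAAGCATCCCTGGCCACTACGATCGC
The member took in 228 of the 300 bases at Tesc, 183 at Arl4c, 157 at Clstn3, 111 at Fkbp1b, 98 at Itga4 and 86 at AA465934. It ran across the start at Tesc, Fkbp1b and Itga4, and lay wholly upstream of the start at Clstn3, AA465934 and Arl4c. The GC content of these windows was 58.0% at AA465934 and 58.3% at Clstn3, 64.3% at Itga4, 65.7% at Fkbp1b, 74.0% at Arl4c and 74.7% at Tesc.

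Members were short regions. Their median width was 259 bp (range 175 to 1791 bp), compared with 228 bp for new Kcr peaks without prior Kac and 323 bp for Kcr peaks found in control cells too. Control Kac peaks covered a median of 75.4% of a member, covered 699 members entirely (18.7%), and covered 2845 members by 50% or more (75.9%). The members touched 3743 of the 23427 control Kac peaks (16.0%), and these had a median width of 262 bp, against 286 bp for all control Kac peaks. At 431 members (11.5%) the same Kac peak also overlapped a control Kcr peak elsewhere along its length.

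About equal numbers of members were near to and far from the Kcr of control cells. The nearest control Kcr peak was a median of 1006 bp away, and 1871 members (49.9%) had one within 1 kb, which follows in part from the rule and is given as a description. For new Kcr peaks without prior Kac the median was 19380 bp, and 27.8% had a control Kcr peak within 1 kb. By distance, 793 members lay under 200 bp from a control Kcr peak, 1078 lay at 200 to 999 bp, 456 at 1000 to 9999 bp, 1031 at 10000 to 99999 bp and 387 at 100000 bp or more. These ranges are of unequal width, so the lower count at 1000 to 9999 bp does not separate a near from a far group. New Kcr peaks without prior Kac also had a lower share there, 14.3%, than in the ranges on either side, 19.1% and 38.5%. A single member on a contig with no control Kcr peak had no distance.

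**Figure D1:**
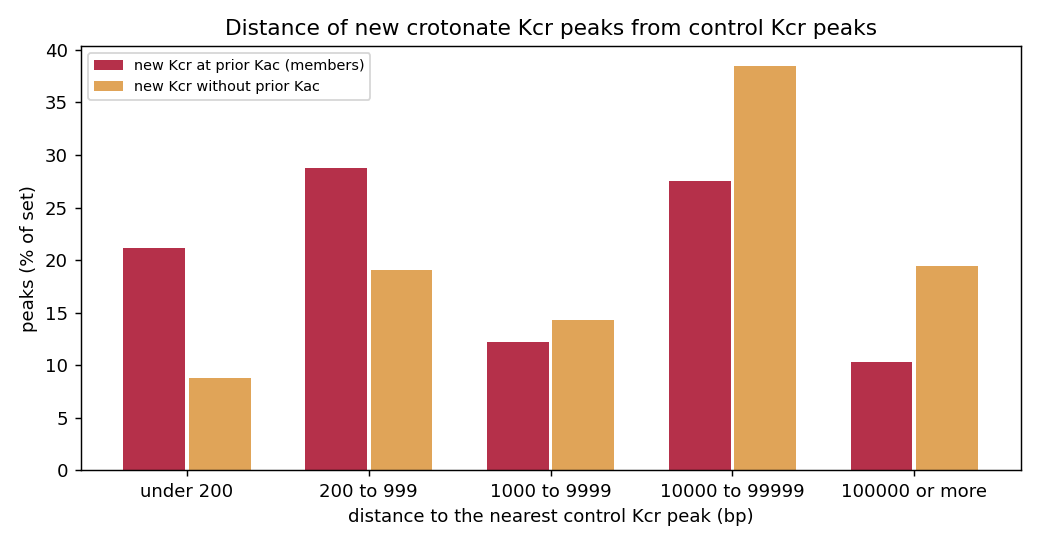
Share of new crotonate Kcr peaks (vertical axis, % of each set) in 5 ranges of distance to the nearest control Kcr peak (horizontal axis, bp), for members and for new Kcr peaks without prior Kac. Members have 21.2% under 200 bp and 28.8% at 200 to 999 bp, against 8.78% and 19.1% of the peaks without prior Kac.

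The edge of the rule was narrow for a small number of regions. Among members, 3 adjoined a control Kcr peak with no base between them, 26 lay within 10 bp of one, and 33 overlapped a control Kac peak by 10 bp or less. Just outside, 43 crotonate Kcr peaks on control Kac overlapped a control Kcr peak by 10 bp or less, and 35 new peaks came within 10 bp of a control Kac peak without touching it. The 3 adjoining members lay in Zfhx2 (chr14:55077123-55077372), beside Mir99ahg (chr16:77329611-77329792) and in Schip1 (chr3:68493774-68494046). Members that shared a single base with a control Kac peak lay in Kif21b, in H2bc6, in Zcchc24, upstream of Thrsp and in Adgrg1. The member at the Tesc promoter printed above had 8 bp of its 273 bp on a control Kac peak.

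The widest members extended well past the acetylation they touched. The widest, 1791 bp at the start of Lncpint, a p53-induced long noncoding RNA gene, shared 220 bp with control Kac (chr6:31216647-31218437). The next were 1290 bp in Dach1, a transcription factor of neural progenitors, with 514 bp on Kac (chr14:98167592-98168881), and 1186 bp at the start of Adm, the adrenomedullin gene, with 341 bp (chr7:110627893-110629078). A member of 1166 bp lay at the start of Pde5a, the cGMP phosphodiesterase 5 gene, with 292 bp on Kac (chr3:122729263-122730428), and a member of 1161 bp lay inside Rhbdf2, which codes for an inactive rhomboid protein, with 199 bp (chr11:116623824-116624984). All 5 also carried a crotonate Kac peak, and 4 of them, all but the Rhbdf2 member, carried an MS-275 Kcr peak.

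Of the members, 2163 (57.7%, 95% exact binomial interval 56.1 to 59.3) still carried a Kac peak in crotonate-treated cells. The share was 34.7% for new Kcr peaks without prior Kac and 80.1% for Kcr peaks found in control cells too. The members' intervals and those of the other sets cover counting error only. With 1 ChIP library per antibody and treatment there is no replicate of any peak call, and no test was made of these shares. The peak lists of the cultured cells carry positions without heights, so sequencing depth is unknown and the absence of a peak does not show the absence of the mark.

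Seen from the acetylated side, 3471 control Kac peaks overlapped a member and no other crotonate Kcr peak, and 57.2% of these were found again in crotonate Kac. Of the 272 Kac peaks that held both a member and a Kcr peak found in control cells too, 93.4% were found again. The share was 82.6% of the 10283 Kac peaks with a lasting Kcr peak only and 37.7% of the 9401 with no crotonate Kcr peak. Median Kac peak widths differed with these shares, at 252 bp, 666 bp, 371 bp and 232 bp in the same order, and their part in the shares was not tested.

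Fewer of these regions were in the MS-275 peak lists. Of the members, 588 (15.7%, interval 14.5 to 16.9) overlapped an MS-275 Kac peak and 515 (13.7%, interval 12.7 to 14.9) an MS-275 Kcr peak. New Kcr peaks without prior Kac had 10.6% and 9.0%, and Kcr peaks found in control cells too had 27.1% and 21.5%. The MS-275 lists were short, with 7555 Kac and 5845 Kcr peaks, compared with 21616 crotonate Kac peaks, and the part of list length in the shares was not tested. In all, 1511 members (40.3%) shared crotonate Kac as the only other NSPC list, 1300 (34.7%) appeared in none of the 3 lists, and 123 (3.28%) appeared in all 3.

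In forebrain tissue, 2621 members (70.0%, interval 68.5 to 71.4) overlapped an H3K9ac peak and 1840 (49.1%, interval 47.5 to 50.7) an H3K9cr peak. The shares were 48.0% and 25.4% for new Kcr peaks without prior Kac, and 84.6% and 72.0% for Kcr peaks found in control cells too. Members therefore stood between the other sets in all 5 lists. The sets were themselves defined by control Kac and control Kcr, and the part of that rule in this order was not tested. Median peak width had the same order, at 228 bp without prior Kac, 259 bp at members and 323 bp in control cells too. The forebrain lists had wide peaks, with medians of 1093.5 bp for H3K9ac and 802 bp for H3K9cr, against 297 bp for crotonate Kac. The part of these widths in the shares was not tested. Forebrain H3K9cr almost always came with H3K9ac: 1839 members had both, 782 had H3K9ac alone, 1 had H3K9cr alone and 1124 had neither. The authors' fold enrichment of the overlapping H3K9ac peak had a median of 16.9 at members, compared with 10.9 at new Kcr peaks without prior Kac, 23.8 at Kcr peaks found in control cells too and 12.6 over all H3K9ac peaks. For H3K9cr the medians were 8.90 at members, 7.59 and 11.4 in those sets, and 8.38 over all peaks.

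**Figure D2:**
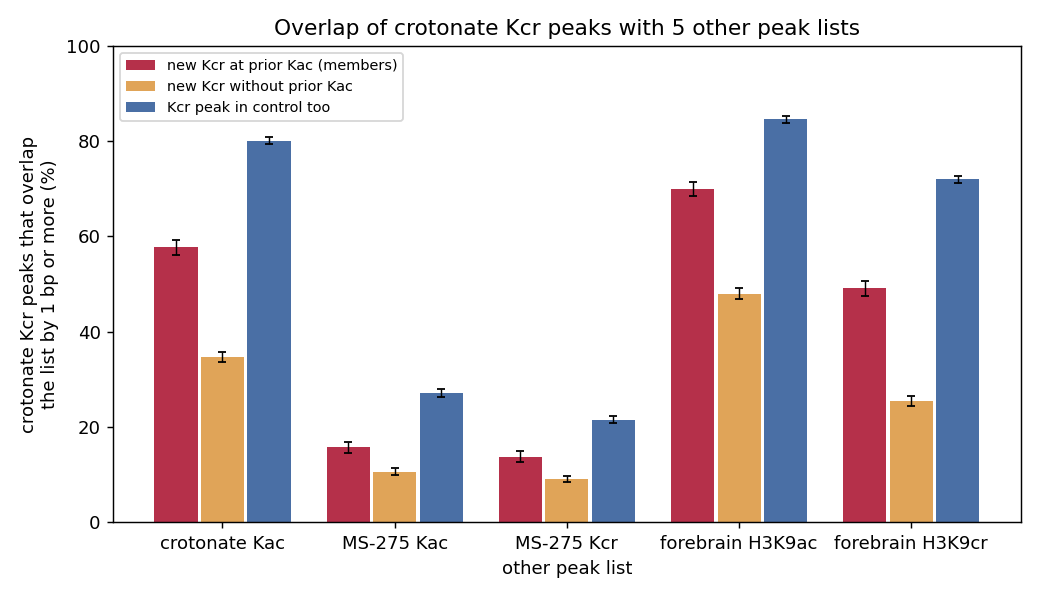
Share of crotonate Kcr peaks (vertical axis, %) that overlapped 5 other peak lists by 1 bp or more (horizontal axis), for members, new Kcr peaks without prior Kac and Kcr peaks found in control cells too. Error bars are 95% exact binomial intervals, for counting error only. Members lie between the other sets in each list, at 57.7% for crotonate Kac and 49.1% for forebrain H3K9cr.

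The members under the strongest forebrain H3K9cr peaks lay within 273 bp of control Kcr peaks. The member beside Pcif1, an mRNA cap methyltransferase gene, lay under an H3K9cr peak of 62.3-fold enrichment and an H3K9ac peak of 149.7-fold (chr2:164878702-164879256). At Rbm39, a splicing factor gene, the values were 62.2-fold and 146.5-fold (chr2:156179926-156180100). Nfyc, a subunit of the CCAAT-binding factor NF-Y, had 45.9-fold and 112.5-fold. The member 10536 bp upstream of Per1, which lies 115 bp from an end of Vamp2, had 42.7-fold and 103.3-fold, and the member in Marcks had 38.8-fold and 92.2-fold.

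Members gathered on both sides of gene starts. Of the 3620 members on a chromosome with stranded starts, 1931 (53.3%) lay within 1 kb of one, compared with 41.3% of new Kcr peaks without prior Kac and 65.3% of Kcr peaks found in control cells too. Of these 1931, 1221 were centred downstream of the start and 710 upstream. In 100-bp bins the counts were highest 200 to 300 bp downstream (9.34% of members) and 200 to 300 bp upstream (4.70%), with 4.09% in all within 100 bp of the start itself. A member covered the start in 236 cases (6.52%), and 1107 members (30.6%) were over 10000 bp from any start. Of the 1689 members farther from a stranded start, 943 (55.8%) were inside a protein-coding gene. On the X chromosome there were 26 members, 31.0% of its 84 crotonate Kcr peaks, while on the autosomes the share ran from 14.7% to 18.1%. Per 100 control Kac peaks, the X chromosome had 10.5 members (of 248 peaks), and the autosomes had 13.8 to 18.6.

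**Figure D3:**
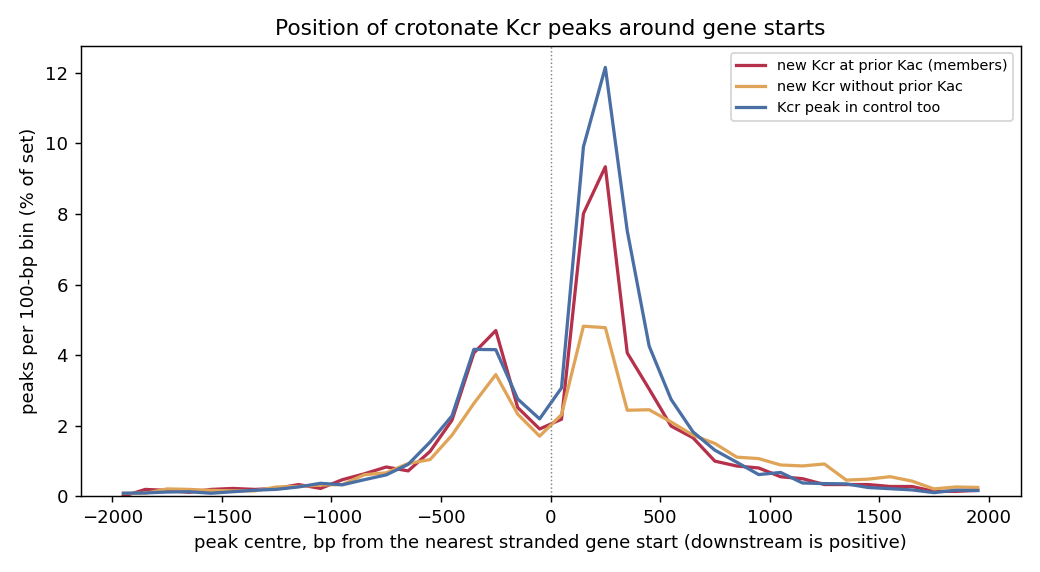
Position of crotonate Kcr peak centres around the nearest stranded gene start (horizontal axis, bp, downstream positive) as the percentage of each set per 100-bp bin (vertical axis), for members, new Kcr peaks without prior Kac and Kcr peaks found in control cells too. All sets have a larger maximum downstream and a smaller one upstream, and members reach 9.34% and 4.70%.

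The promoters reached by members were rich in CpG. The 970 promoter windows that overlapped a member had a median GC content of 63.7%, 23 CpG and an observed to expected CpG ratio of 0.787. All 32851 windows had 52.7%, 7 and 0.384, while windows at new Kcr peaks without prior Kac, and at no member, had 63.0%, 20 and 0.709 and windows at Kcr peaks found in control cells too had 65%, 26 and 0.840. The GC box letters GGGCGG were found, on either strand, in 70.3% of member windows, 65.4% of windows at new Kcr peaks without prior Kac, 69.0% of windows at Kcr peaks found in control cells too and 35.7% of all windows. The TATA box letters TATAAA were found in 4.74%, 5.86%, 4.31% and 13.6% in that order. The ETS motif CCGGAAGT was in 8.66% of member windows, 3.17% of windows at new Kcr peaks without prior Kac, 9.62% of windows at Kcr peaks found in control cells too and 3.89% of all. CCAAT was found in 32.9%, 29.6%, 28.8% and 37.4% in that order. Motif matches differed together with GC content, whose part was not tested.

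For RNA, a gene was placed at a member when the member lay within 1 kb of its start, or of either end where no strand was annotated, and "start" below covers both cases. This gave 2504 genes, of which 2255 reached 1 TPM (a transcript abundance per length, scaled to the same total in every library) in 4 or more of the 12 NSPC libraries and 249 did not. They came from 2192 members (58.5%), of which 240 lay at more than 1 gene. A member on chromosome 18 accounted for 21 protocadherin gamma genes such as Pcdhga1 on its own. The cells held RNA of neural stem markers in every NSPC library, with Sox2 at 271 to 295 TPM in crotonate-treated, 247 to 281 TPM in MS-275-treated and 262 to 290 TPM in control libraries. Other markers differed between treatments: Nes, the nestin gene, had 226 to 277 TPM with crotonate, 225 to 272 TPM with MS-275 and 346 to 396 TPM in control libraries, and Vim, the vimentin gene, 3250 to 3716, 5839 to 6156 and 3454 to 3868 TPM in that order. Summed microglial markers stayed at 2.39 TPM or below. Summed endothelial markers were 2.93 to 4.17 TPM in crotonate-treated, 4.94 to 6.77 TPM in MS-275-treated and 1.66 to 2.17 TPM in control libraries, and their part in the results below was not tested. In the forebrain RNA library, the median level of members' genes was 25.1 TPM, against 20.2 TPM over all tested genes. Read depth behind the TPM values is unknown. In bulk RNA, fewer cells of a type and less RNA per cell cannot be told apart.

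The share of members' genes called higher or lower with crotonate was close to that of genes in general. Of the 2255, 742 (32.9%) were higher and 376 (16.7%) lower in crotonate-treated than in control cells (limma, adjusted p under 0.05), against 32.3% and 15.9% of all 14857 tested genes. Their median log2 fold change was 0.09, the same as over all tested genes. At 2-fold or more, 97 were higher (4.30%) and 1 was lower, against 6.15% and 0.114% of all tested genes. The split depended on the scaling of the libraries: after median-of-ratios scaling 528 were higher and 660 lower, and after quantile normalization 502 and 577, while 3503 and 4213 of all tested genes were higher and lower under median-of-ratios scaling. That scaling moved the median log2 fold change of all genes by -0.12.

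Within the members' genes, those without and with Kcr at the start in control cells had unlike shares. The 967 genes at a member with no control Kcr peak within 1 kb of the start had 40.6% higher and 11% lower and a median log2 fold change of 0.18. The 1288 with a control Kcr peak at the start as well had 27.1% and 21.0% and a median of 0.02, close to the 25%, 21.9% and 0.01 of 5091 genes with only lasting Kcr peaks. Genes at new Kcr peaks without prior Kac and at no member had 58.8% higher, 7.14% lower and a median of 0.47 (n = 1401), and 4222 genes with no crotonate Kcr peak had 35.2%, 13.3% and 0.16. After median-of-ratios scaling the first of these groups had 31.7% higher and 20.8% lower and the second 17.2% and 35.6%. After quantile normalization the first had 26.4% higher, 19.1% lower and a median of 0.011, and the second 19.2%, 30.4% and -0.07. Genes at new Kcr peaks without prior Kac then had 39.1% higher and 13.1% lower, and genes with no crotonate Kcr peak 20.8% and 22.4% with a median of -0.04. Genes are not independent replicates, and no test of these shares was made.

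Control expression differed between the same groups. The median control level was 15.0 TPM for members' genes without control Kcr at the start, 27.6 TPM for those with it, 4.81 TPM for genes at new Kcr peaks without prior Kac and 31.9 TPM for genes with lasting Kcr only. Among genes under 5 TPM in control cells, 62.4% of 229 members' genes without control Kcr were higher with crotonate, against 44.8% of all 4320 tested genes in that range. From 5 to 20 TPM the shares were 42.7% of 328 and 37.6% of 3683, from 20 to 50 TPM 28.9% of 228 and 24.7% of 3407, and at 50 TPM or more 24.2% of 182 and 18.4% of 3447. For members' genes with control Kcr the shares in these 4 ranges were 37.3%, 38%, 21.3% and 19%. The share called higher was smaller in each higher range for members' genes without control Kcr and for all tested genes. For those with control Kcr it was smaller in both ranges from 20 TPM up than in both below. Genes at new Kcr peaks without prior Kac had 74.3%, 51.5%, 38.3% and 24.4% higher in the 4 ranges. Genes low in control cells could pass the filter through treated libraries alone, and the control level is also the baseline of the fold change. Both favour higher calls in the lowest range, where 44.8% of all tested genes were higher and 1.76% lower. Their part was not tested, and the shares are a description.

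**Figure D4:**
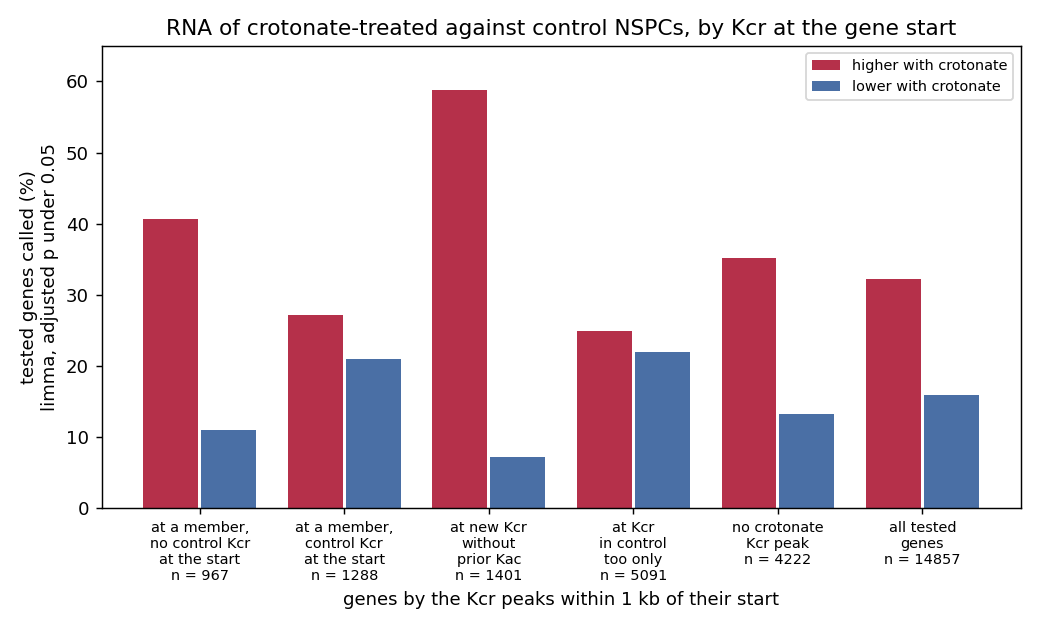
Percentage of tested genes called higher or lower in crotonate-treated than in control NSPCs (vertical axis; limma, adjusted p under 0.05) for genes grouped by the Kcr peaks within 1 kb of their start, or of either end where no strand was annotated (horizontal axis, with n). Members' genes without control Kcr have 40.6% higher and 11% lower, against 32.3% and 15.9% of all tested genes.

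The shares called differed between genes whose members did and did not carry another mark. Over all tested genes, 32.3% were higher and 15.9% lower with crotonate. Where a member overlapped crotonate Kac, 482 of 1324 genes (36.4%) were higher with crotonate and 200 (15.1%) lower, compared with 260 of 931 (27.9%) and 176 (18.9%) where none did. Where a member overlapped MS-275 Kac, 131 of 266 genes (49.2%) were higher with crotonate and 19 (7.14%) lower, compared with 30.7% and 17.9% of the other 1989. For MS-275 Kcr the shares were 44.2% and 11.9% of 260 genes, compared with 31.4% and 17.3% of 1995. Genes with a member under forebrain H3K9cr ran the other way, with 28.4% of 1645 higher and 18% lower, compared with 44.9% and 13.1% of 610 without. For forebrain H3K9ac the shares were 31.8% and 17.1% of 2084 genes with it, compared with 46.2% and 11.7% of 171 without. Median control levels were 20.3 TPM with and 24.2 TPM without crotonate Kac, and 15.1 TPM with and 22.5 TPM without MS-275 Kac. They were 17.0 TPM with and 22.4 TPM without MS-275 Kcr. For the forebrain marks they were 21.9 TPM with and 16.1 TPM without H3K9ac, and 24.2 TPM with and 14.7 TPM without H3K9cr. The part of these control levels in the shares was not tested.

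With MS-275, 895 of the 2255 genes (39.7%) were higher and 625 (27.7%) lower than in control cells, against 37.4% and 27.6% of all tested genes. Crotonate and MS-275 were compared with the same 4 control libraries, so their calls are not independent. Set directly against crotonate, MS-275 gave 504 higher (22.4%) and 616 lower (27.3%) genes, against 19.3% and 27.4% of all tested genes.

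On the log2(TPM + 1) scale of the fit, the largest increase among the named genes was at Tesc. As a ratio of mean TPM, crotonate over control, the rise was 5.24 at Tesc, 8.51 at Vit and 8.52 at Pdgfrl. Tesc, which codes for the calcium-binding protein tescalcin, had 116, 113, 123 and 111 TPM in crotonate-treated, 166, 150, 162 and 150 TPM in MS-275-treated, and 25.6, 19.7, 22.6 and 20.4 TPM in control libraries. All 8 treated libraries lay far above the controls. The log2 fold change of crotonate over control was 2.34 ± 0.07 (SE, adjusted p = 4.56e-09), and MS-275 was higher than crotonate by 0.44 (adjusted p = 0.000353). Its member carried no crotonate Kac peak and lay 50002 bp from any control Kcr peak.

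Clstn3, which codes for the synaptic adhesion protein calsyntenin-3, had 10.0, 9.93, 9.42 and 8.90 TPM with crotonate, 10.8, 10.5, 9.35 and 8.87 TPM with MS-275, and 1.21, 1.62, 1.07 and 1.73 TPM in control libraries. The 2 treatments overlapped and both stood clear of the controls. Its log2 fold change with crotonate was 2.14 ± 0.10 (SE, adjusted p = 1.76e-08). The promoter sequence above shows the member ending 94 bp before the start, and 271 of its 284 bp were on control Kac.

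Vit, which codes for the matrix protein vitrin, had 6.61, 8.62, 6.43 and 7.83 TPM with crotonate, 3.02, 3.56, 2.58 and 4.21 TPM with MS-275, and 0.59, 1.06, 0.71 and 1.11 TPM in control libraries. The 3 groups did not overlap, and crotonate was the highest (log2 fold change 2.17 ± 0.15, SE, adjusted p = 2.34e-07). Pdgfrl, a platelet-derived growth factor receptor-like gene, had the same order, with means of 7.12 ± 1.02, 3.52 ± 0.71 and 0.84 ± 0.24 TPM (SD, n = 4 each) for crotonate, MS-275 and control. MS-275 was lower than crotonate by a log2 difference of -0.95 at Vit (adjusted p = 0.000187) and -0.85 at Pdgfrl (adjusted p = 0.000446).

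Fkbp1b, whose product binds calcium release channels, had 12.9, 7.36, 10.2 and 7.0 TPM with crotonate, 9.28, 8.62, 7.77 and 6.69 TPM with MS-275, and 1.20, 2.28, 1.247 and 1.798 TPM in control libraries. Its treated groups overlapped each other and not the controls (crotonate log2 fold change 1.96 ± 0.19, SE, adjusted p = 3.92e-06). The remaining named genes of this kind were Zfr2, Ccdc122, Srcin1, Txnip and Plin3, with crotonate log2 fold changes from 1.81 at Plin3 to 2.06 at Zfr2. Txnip, the thioredoxin-interacting protein gene, averaged 31.0 ± 3.5 TPM with crotonate, 43.3 ± 5.8 TPM with MS-275 and 8.10 ± 1.4 TPM in control libraries (SD, n = 4 each). Plin3, which codes for a lipid droplet coat protein, averaged 6.57 ± 0.20, 10.5 ± 1.2 and 1.17 ± 0.13 TPM in the same order. Of these 10 genes, 7 had no control Kcr peak at the start, 6 had a member with crotonate Kac, and all 10 were also higher with MS-275. Of all 2255 members' genes, 967 had no control Kcr peak at the start and 1324 had a member with crotonate Kac. With MS-275, 39.7% of the 2255 were higher. The 10 were picked for their rise over the same 4 control libraries, so their rise with MS-275 is in part built in.

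Decreases were smaller. Fam72a had 6.42, 5.62, 5.08 and 6.99 TPM with crotonate, 8.49, 8.43, 11.01 and 7.17 TPM with MS-275, and 12.9, 12.2, 11.5 and 10.8 TPM in control libraries. Crotonate and control libraries did not overlap, and MS-275 lay between them apart from 1 library that reached the control range (crotonate log2 fold change -0.88 ± 0.12, SE, adjusted p = 7.10e-05). Cdca2, whose product targets protein phosphatase 1 to chromosomes in mitosis, averaged 28.3 ± 3.0 TPM with crotonate, 12.5 ± 0.5 TPM with MS-275 and 49.3 ± 3.8 TPM in control libraries (SD, n = 4 each). AA465934 had the largest fall, -0.94 ± 0.29 (SE, adjusted p = 0.0172). Its call was lost without control replicate 2 (adjusted p = 0.0524) and without crotonate replicate 3 (0.0534), and over all alternatives tried its adjusted p ran from 0.000491 to 0.0534.

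Ralgds, an exchange factor for Ral GTPases, had 26.0, 26.5, 25.6 and 24.6 TPM with crotonate, 40.0, 38.4, 37.3 and 38.3 TPM with MS-275, and 42.3, 41.1, 39.1 and 46.5 TPM in control libraries. Crotonate libraries lay apart, while MS-275 overlapped the controls (crotonate log2 fold change -0.69 ± 0.05, SE, adjusted p = 6.56e-07). Itga4, which codes for integrin alpha 4, averaged 11.1 ± 0.6 TPM with crotonate, 13.6 ± 1.9 TPM with MS-275 and 19.1 ± 1.4 TPM in control libraries (SD, n = 4 each). Arl4c, a small GTPase gene, averaged 21.5 ± 1.9, 20.7 ± 3.4 and 36.8 ± 4.6 TPM in that order, and Ifrd1, a transcriptional co-regulator gene, 65.3 ± 8.8, 56.6 ± 5.7 and 109.0 ± 11.8 TPM.

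Foxj1, the master regulator of motile cilia, had 3.29, 4.66, 3.69 and 3.79 TPM with crotonate, 8.04, 9.46, 8.31 and 9.73 TPM with MS-275, and 6.79, 7.12, 6.55 and 7.97 TPM in control libraries. Crotonate fell below the controls (-0.74 ± 0.10, SE, adjusted p = 6.43e-05), and all MS-275 libraries were above them. MS-275 exceeded crotonate by 1.03 on the log2 scale (adjusted p = 5.28e-06), but its excess over control (0.28, adjusted p = 0.0240) was -0.032 after quantile normalization, missed the threshold after median-of-ratios scaling (adjusted p = 0.0953) and lost its call with no filter on low levels and without control replicate 1 or 3 or MS-275 replicate 2 or 4. Gper1, a membrane estrogen receptor gene, had means of 3.30 ± 0.59, 8.08 ± 0.97 and 6.06 ± 1.24 TPM (SD, n = 4 each) for crotonate, MS-275 and control. MS-275 exceeded crotonate there by 1.08 (adjusted p = 5.64e-05), while its difference from control (0.38, adjusted p = 0.033) lost its call under both scalings, with no filter and without the same replicates.

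**Figure D5:**
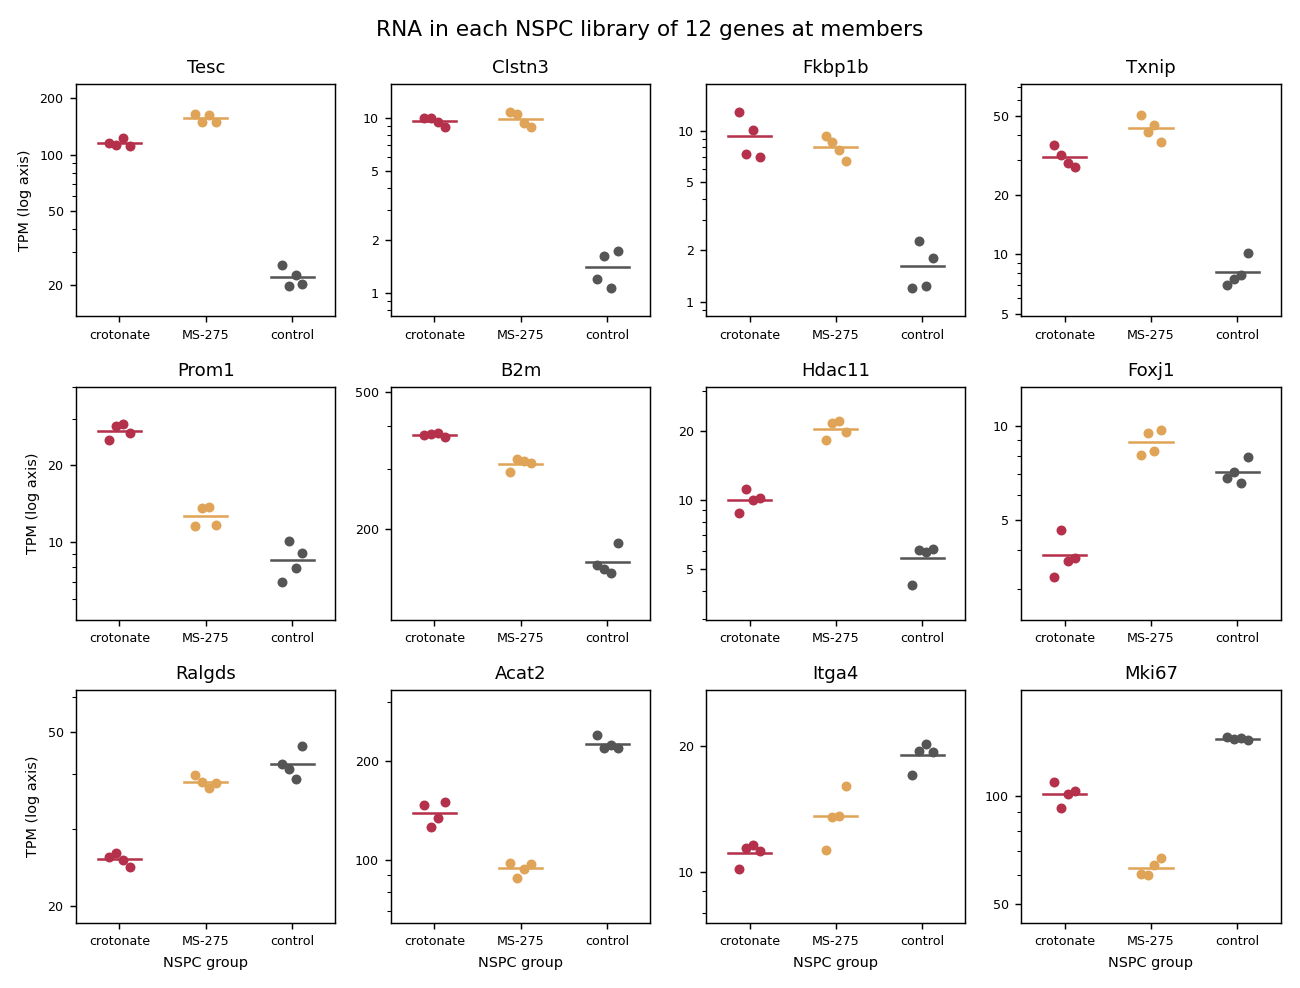
RNA level in TPM (vertical axes, log scale) in each of 4 libraries of crotonate-treated, MS-275-treated and control NSPCs (horizontal axes) for 12 genes with a member within 1 kb of the start (of either end for Foxj1, which has no annotated strand). Points are libraries and lines are means. Tesc, Clstn3, Fkbp1b, Txnip, Prom1, B2m and Hdac11 are above the controls in all 4 crotonate libraries, and Foxj1, Ralgds, Acat2, Itga4 and Mki67 are below them.

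Cell-cycle and cholesterol genes at members fell, as did most of their lists. Of 30 mitosis genes tested, 29 fell and none rose with crotonate, and 3 of the 4 at members fell. Mki67, the proliferation marker, had 109, 92.7, 101 and 103 TPM with crotonate, 60.6, 60.1, 63.9 and 67.0 TPM with MS-275, and 146, 144, 145 and 143 TPM in control libraries. The 3 groups were fully separate, with MS-275 lowest. Plk1, a mitotic kinase gene, fell by 0.56 with crotonate and by 1.85 with MS-275 on the log2 scale. Of 28 replication genes 26 fell, as did all 3 at members, which are Mcm3, a helicase subunit, Rfc4, a clamp loader subunit, and Tyms, thymidylate synthase. Under both other scalings 29 or 30 of the 30 mitosis, 26 or 27 of the 28 replication and 20 or 22 of the 23 cholesterol genes were called lower and 0 higher. Of the synapse, REST-repressed, interferon and imprinted lists 11 to 19 genes each were called higher and 0 or 1 lower under these scalings.

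Of 23 cholesterol synthesis genes, 19 fell and none rose with crotonate, with a list median log2 fold change of -0.45 (all genes 0.09), and 6 of 8 genes at members fell. Acat2, a cytosolic thiolase that makes acetoacetyl-CoA, had 147, 126, 134 and 150 TPM with crotonate, 98.3, 88.4, 93.9 and 97.5 TPM with MS-275, and 240, 219, 224 and 218 TPM in control libraries. The groups did not overlap (crotonate log2 fold change -0.69 ± 0.06, SE, adjusted p = 1.46e-06). Fdps, farnesyl diphosphate synthase, averaged 300.2 ± 26.3, 241 ± 18 and 475 ± 31 TPM (SD, n = 4 each) for crotonate, MS-275 and control.

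In TPM as deposited, most genes of the neuronal lists rose, and those at members did so in part. Of 29 synapse and excitability genes, 23 rose and none fell, and 5 of the 6 at members rose (3 rose and 1 fell after median-of-ratios scaling). Syn2, a synaptic vesicle protein gene, averaged 21.1 ± 1.8 TPM with crotonate, 22.4 ± 1.2 TPM with MS-275 and 12.8 ± 2.3 TPM in control libraries (SD, n = 4 each). Both genes of the list of REST-repressed genes at members rose, as did 14 of its 18, while 1 fell. Stmn3, a neuronal microtubule regulator, averaged 162 ± 6, 135 ± 7 and 102 ± 2 TPM in that order, and Unc13a, which primes synaptic vesicles, 9.38 ± 1.01, 12.8 ± 1.5 and 5.24 ± 0.36 TPM. Of 20 neuronal differentiation genes 13 rose and 4 fell, while at members 1 of 4 rose and 2 fell. The 2 were Map2, a dendritic microtubule protein gene (-0.31, adjusted p = 4.50e-05), and Insm1, a basal progenitor transcription factor gene (-0.54, adjusted p = 0.000461). After median-of-ratios scaling 12 of the 20 rose and 6 fell (1 and 3 at members). After quantile normalization 9 rose and 4 fell (0 and 2 at members).

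Among 25 stem cell and radial glia genes, 3 rose and 3 fell (3 and 9 after median-of-ratios scaling, 6 and 4 after quantile normalization), and at members 2 of 6 rose and 1 fell. Prom1, which codes for the stem cell surface protein prominin-1, had 24.9, 28.1, 28.8 and 26.5 TPM with crotonate, 11.6, 13.51, 13.7 and 11.6 TPM with MS-275, and 6.98, 10.1, 7.93 and 9.06 TPM in control libraries. Crotonate was highest and the groups did not overlap (log2 fold change 1.57 ± 0.10, SE, adjusted p = 1.45e-07). Tnc, the matrix glycoprotein tenascin-C gene, averaged 261 ± 16 TPM with crotonate, 492 ± 33 TPM with MS-275 and 357 ± 32 TPM in control libraries (SD, n = 4 each). It fell with crotonate by 0.45 and rose with MS-275 by 0.46 on the log2 scale (adjusted p = 0.000149 and 5.30e-05).

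Genes of enzymes that remove acyl marks were mixed. Of 18 deacetylase and sirtuin genes, 8 rose and 4 fell, and of the 4 at members Hdac11, Sirt2 and Sirt4 rose, while Hdac4 had -0.06 (adjusted p = 0.600). After median-of-ratios scaling 6 of the 18 rose and 5 fell (2 and 0 at members), and after quantile normalization 8 and 6 (3 and 1 at members). Hdac11, the class IV deacetylase gene, had 8.75, 11.2, 10.0 and 10.2 TPM with crotonate, 18.3, 21.6, 22.1 and 19.7 TPM with MS-275, and 4.23, 6.05, 5.92 and 6.12 TPM in control libraries. The groups did not overlap, and MS-275 was the highest (crotonate log2 fold change 0.75 ± 0.11, SE, adjusted p = 0.000118). Sirt4, a mitochondrial sirtuin gene, averaged 30.8 ± 6.7, 45.4 ± 3.6 and 19.4 ± 1.1 TPM (SD, n = 4 each) for crotonate, MS-275 and control. The acetyltransferase gene Kat8 (-0.01, adjusted p = 0.949) and the reader genes Brd9 (-0.10, adjusted p = 0.145) and Dpf3 (-0.06, adjusted p = 0.402) did not pass the test with crotonate, and Brd9 and Dpf3 passed it as lower after median-of-ratios scaling.

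Of 13 genes of crotonyl-CoA metabolism, 5 rose and 6 fell, and at members 1 of 4 rose and 3 fell. Cdyl2, a relative of the crotonyl-CoA hydratase gene Cdyl, averaged 4.74 ± 0.43 TPM with crotonate, 2.77 ± 0.27 TPM with MS-275 and 2.16 ± 0.26 TPM in control libraries (SD, n = 4 each), with a crotonate log2 fold change of 0.86 (adjusted p = 2.03e-05). Acly, ATP citrate lyase, which makes acetyl-CoA, fell by 0.45 with crotonate (adjusted p = 1.35e-06), and Hadha and Hadhb, subunits of the mitochondrial trifunctional protein, fell too. In the list of fatty acid oxidation genes, 14 of 21 rose and 3 fell, and at members 3 of 7 rose and 2 fell. After median-of-ratios scaling 9 rose and 4 fell (2 and 2 at members), and after quantile normalization 11 and 4 (3 and 3 at members). Slc25a20, the mitochondrial carnitine carrier gene, averaged 46.2 ± 2.2, 59.4 ± 1.2 and 29.3 ± 2.3 TPM for crotonate, MS-275 and control (SD, n = 4 each), and Acaa2, a thiolase gene, rose by 0.32 on the log2 scale.

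Of 19 interferon and MHC class I genes, 15 rose and none fell, and 1 of the 2 at members rose. B2m, whose product is the invariant subunit of class I MHC molecules, had 375, 379, 381 and 371 TPM with crotonate, 294, 320, 315 and 313 TPM with MS-275, and 157, 154, 149 and 183 TPM in control libraries. The 3 groups were separate with crotonate on top (log2 fold change 1.23 ± 0.05, SE, adjusted p = 1.03e-08). Stat2, an interferon signal transducer gene, did not pass the test with crotonate (-0.10, adjusted p = 0.506). Of 21 imprinted genes, 16 were called higher with crotonate and 0 lower. Those at members were Igf2r (0.46, adjusted p = 0.0007) and Mest (0.02, adjusted p = 0.797).

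Of 4 glial lineage genes at members, 2 were called higher with crotonate. Aldh1l1, an astrocyte enzyme gene, rose by 0.65 (adjusted p = 0.00127), and Apoe had 0.17 (adjusted p = 0.278, and 0.00627 without control replicate 4). Olig1, an oligodendrocyte lineage factor gene, averaged 1247 ± 106 TPM with crotonate, 2300.3 ± 116 TPM with MS-275 and 1140 ± 83 TPM in control libraries (SD, n = 4 each). Its crotonate value of 0.13 did not pass the test (adjusted p = 0.116) and passed with the replicate block (adjusted p = 0.0151) and without control replicate 2 (adjusted p = 0.0458). Olig2 was called higher by 0.08 (adjusted p = 0.0391), a call that was lost with no filter on low levels, with no trend in limma's variance, and without control replicate 1, 2 or 3 or crotonate replicate 2 or 3, and its value was -0.054 after median-of-ratios scaling. No gene of the endothelial (7 genes), microglial (7), erythroid (6) or choroid plexus and Cajal-Retzius (8) marker lists lay at a member. Of these lists, 1, 0, 0 and 2 genes in that order passed the filter on RNA level. Over all tested genes with a position, 16.2% were at a member. With so few genes the absence is a description and not a trait of members.

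Of the 4 tested genes at the widest members, 3 were called higher with crotonate, against 32.3% of all tested genes. With 4 genes, and the call of Adm unstable, this count is a description and not a trait of wide members. Pde5a had 10.7, 6.13, 5.95 and 5.26 TPM with crotonate, 3.91, 4.21, 4.10 and 3.56 TPM with MS-275, and 1.94, 1.98, 1.55 and 4.62 TPM in control libraries. All crotonate libraries were above the controls, of which 1 stood apart (log2 fold change 1.21 ± 0.24, SE, adjusted p = 0.00116). Rhbdf2, with its member inside the gene, had 3.62, 4.86, 4.37 and 3.79 TPM with crotonate, 9.53, 9.74, 8.54 and 8.30 TPM with MS-275, and 0.79, 0.36, 0.45 and 0.62 TPM in control libraries, with the 3 groups separate. Adm was called higher by 0.22 (adjusted p = 0.0394), a call lost under both scalings, with no filter on low levels, and without control replicate 1, 2 or 3 or crotonate replicate 2, 3 or 4. Dach1 had 0.20 (adjusted p = 0.157, and 0.0465 with the replicate block). Over all alternatives its value ran from -0.20 to 0.26, so its direction depended on the processing. At the members with the strongest forebrain H3K9cr, Rbm39 fell by 0.20 and Marcks, a membrane-bound actin regulator gene, by 0.25 (adjusted p = 0.00109 and 0.00854), while Pcif1, Nfyc and Per1 did not pass the test with crotonate, and Per1, a circadian clock gene, passed as lower under both scalings. Vamp2, the vesicle SNARE gene with an end 115 bp from the member upstream of Per1, rose by 0.33 (adjusted p = 0.000212).

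In forebrain explants of ICR mice, the authors' deposited table called 257 of 2132 members' genes higher with crotonate (12.1%) and 212 lower (9.94%), against 10.5% and 9.76% of the 14498 genes with an adjusted p there. Among the 12908 of them that also passed the NSPC filter, the shares in the authors' deposited table were 11.2% and 9.92%. For members' genes without control Kcr at the start the authors' deposited table gave 11.1% higher and 8.17% lower (n = 894), and for those with it 12.8% and 11.2% (n = 1238). Of the 10 named genes that rose most in NSPCs, 7 had a value in the authors' deposited table, and Txnip was higher (log2 fold change 0.26, adjusted p = 5.91e-05) and Vit lower (-0.29, adjusted p = 0.0211). Of the 10 that fell most, Arl4c was lower (-0.18, adjusted p = 0.000521) and Ifrd1 higher (0.16, adjusted p = 0.00942) in the authors' deposited table. Of the genes named from the lists, 31 had a value in the authors' deposited table, which called 1 higher and 9 lower. The authors' deposited table gave Mki67 (-0.18), Plk1 (-0.17), Mcm3 (-0.21), Insm1 (-0.16) and Acly (-0.058) as lower, as they were in NSPCs. In the authors' deposited table, 4 of the 31 were called in the opposite direction to NSPCs: Olig2 (-0.80, adjusted p = 8.83e-09), Vamp2 (-0.17, adjusted p = 2.08e-06) and Prom1 (-0.13, adjusted p = 0.0269) were lower, and Tnc (0.26, adjusted p = 6.76e-07) was higher. Mest, not called with crotonate in NSPCs, was lower in the authors' deposited table (-0.44, adjusted p = 1.51e-77). The dose and duration of crotonate in explants are not given in the sources used here.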

How the data were processed

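Peak lists of 8 ChIP libraries, RNA levels of 12 NSPC libraries and 1 forebrain library, and an explant comparison were used. Per the submitters' processing notes, reads were handled with Bowtie2 2.3.5.1 and MACS2 2.2.5 (ChIP) and Salmon 1.0.0 and DESeq2 1.26.0 (RNA) on GRCm38; thresholds and the control library behind each list are not given in the sources used here. The NSPC peak lists hold positions only, and the forebrain lists add the authors' fold enrichment (a ratio) at the summit. RNA values are TPM, estimated by the authors and deposited as 1 row per gene symbol. The explant table holds the authors' deposited log2 fold changes, with adjusted p-values, and their mean normalized counts as a signal without values per library.

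Intervals were compared in Python 3.11.15 (overlap of 1 bp or more, checked against bedtools 2.31.1). Gene starts came from RefSeq tables on GRCm38.p6: 13912 of 14857 tested genes had a position, 10910 with a strand and 3002 placed by both ends. limma 3.58.1 in R 4.3.3 was fitted to log2(TPM + 1) of all 3 NSPC groups (eBayes with trend, two-sided, Benjamini-Hochberg over the 14857 genes that reached 1 TPM in 4 or more of 12 libraries), so fold changes understate those of low genes. The procedure was tested on simulated data. Libraries with the same replicate number deviated together (correlations 0.119 to 0.241 over 12 pairs, against -0.197 to 0.0993 over 36 other pairs), so they may be paired. The labels do not say what the numbers stand for. The main fit had no block, and a replicate block was an alternative, as were the scaling, pseudocount, filter, windows and leaving out each library.

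The members, gene lists and rules were chosen with earlier results of these data known. Named genes are, per direction, the 10 largest called changes of crotonate against control at members whose groups do not overlap, with a mean of at least 5 TPM in the higher group and no Gm or Rik symbols, plus the 2 genes of smallest p at members from each list; named regions are the 5 at each extreme of width, distance, Kac overlap and forebrain H3K9cr. Genes of named regions, and genes of a list given by name only, follow from these. No genome sequence was used beyond the promoter windows. DNA methylation was not analysed here.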

Additional observations from a re-analysis of the deposited data

Results flagged for a closer look

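Among 180 sets of 4 libraries, 60 named genes in each of 3 NSPC groups, 11 held a library far from the other 3 of its group. Chance alone flags about 1 set in 20, and 11 of 180 is near that rate, so the cases below are a description. In crotonate replicate 2, Cdca2 was low at 23.9 TPM (other crotonate libraries 29.5 to 30.3), Plk1 was low at 74.9 TPM (85.3 to 85.5), Fdps was low at 261 TPM (308 to 317) and Olig1 was high at 1405 TPM (1189 to 1199). In crotonate replicate 4, Vamp2 was low at 103.7 TPM (111 to 113) and Cdyl2 was low at 4.11 TPM (4.88 to 5.02). In MS-275 replicate 2, Stmn3 was low at 124 TPM (137 to 139) and Fdps was low at 214 TPM (247 to 251). In MS-275 replicate 3, Srcin1 was high at 7.23 TPM (6.32 to 6.38). In control replicate 1, Mest was low at 544 TPM (614 to 621) and Hdac11 was low at 4.23 TPM (5.92 to 6.12).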

How the results depend on the processing

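The set shrank to 1875 members when no control Kcr peak within 1 kb was allowed and to 2163 when crotonate Kac was also required. The members' overlap shares moved as follows. Requiring 50% of the member to be covered gave 47.9% for crotonate Kac, 10.5% for MS-275 Kac, 8.81% for MS-275 Kcr, 65.8% for H3K9ac and 44.8% for H3K9cr. With the 1 kb rule MS-275 Kac was 17.2%, MS-275 Kcr 15.5%, H3K9ac 66.2% and H3K9cr 45.2%. With members covered by control Kac over 50% or more, MS-275 Kcr was 12.2%, H3K9ac 71.5% and H3K9cr 50.8%. Forebrain peaks of at least 5-fold enrichment gave 64.4% for H3K9ac and 41.0% for H3K9cr. Genes at members of the 1 kb rule numbered 404 higher and 115 lower with crotonate (40.2% and 11.4% of 1005), 478 and 217 with MS-275, and 249 and 233 for MS-275 against crotonate. Genes lower with crotonate numbered 660 after median-of-ratios scaling and 577 after quantile normalization, against 376 in TPM as deposited.

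Leaving out 1 library gave 681 to 748 genes higher and 331 to 373 lower with crotonate, 835 to 893 and 585 to 625 with MS-275, and 449 to 508 and 563 to 620 for MS-275 against crotonate. The replicate block gave 778 and 402, 911 and 652, and 525 and 639 for the same comparisons. It changed the crotonate calls of Olig1 and Dach1, given above. Its other changes of call were in MS-275 comparisons: AA465934 gained a call for MS-275 against control (adjusted p = 0.0299) and against crotonate (0.0110), 5930403N24Rik for the same comparisons (0.0301 and 0.0268), and Ifrd1 for MS-275 against crotonate (0.0488), while Ralgds lost its call for MS-275 against control (0.0551) and Pde5a for MS-275 against crotonate (0.0595). It changed no other call of the 60 named genes. Genes with a stranded start only, an alternative chosen after seeing the data, gave 591 and 307 with crotonate. Of 3240 refits of named genes, 3116 kept the call, or the lack of one, 86 lost a call and 34 gained one. In the other 4 the sign turned with a call in the main fit, the refit or both. They were Foxj1 (-0.032), Cdyl2 (-0.26) and Dach1 (-0.30) with MS-275 after quantile normalization, and Olig2 with crotonate (-0.054) after median-of-ratios scaling. Values without a call in either fit could turn sign within the 3116. Mest with crotonate, for example, ran from -0.11 to 0.16. Peak calls have no replicate and no depth, so a missing peak may lie just under a threshold.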
